A study of Mus musculus with 9 samples.

Results

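The genes described here are 44 components of the mouse DNA replication machinery, chosen by name from the gene symbols of the deposited count table. All 44 were among its 16636 genes, and all 44 passed the filter on low counts that left 14246 genes for testing. They fall into 9 roles: origin recognition (Orc1 to Orc6), licensing (Cdc6, Cdt1 and Mcm2 to Mcm7), and helicase activation (Mcm10, Cdc45 and Gins1 to Gins4). The others are polymerases and primase (Pola1, Pola2, Prim1, Prim2, Pold1, Pold2, Pole and Pole2), the sliding clamp and its loader (Pcna and Rfc1 to Rfc5), and single-strand binding (Rpa1 to Rpa3). The last are Okazaki fragment maturation (Fen1 and Lig1), fork protection (Timeless and Tipin) and nucleotide supply (Rrm1, Rrm2 and Tyms).

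The cells were E14, an established line of wild-type mouse embryonic stem cells. They were kept in the naive state on fibronectin in 2i medium, which contains the MEK inhibitor PD0325901 and the GSK3 inhibitor CHIR99021, with LIF added. Bulk mRNA was sequenced from 3 groups of 3 libraries. Untreated cells received no siRNA. The siLuc group received an siRNA against luciferase, a gene that mouse cells lack, and served as the transfection control. The siStag3 group received an siRNA against Stag3, a cohesin subunit best known from meiosis. Both siRNAs were given with RNAiMax as 50 pmol at seeding and 50 pmol again on the next day, and cells were collected at 48 h. The libraries carry a set number and an experiment number whose meaning is not given in the sources used here; in each group Set 1 holds 2 libraries and Set 3 holds 1. In Set 1 every group has experiments 1 and 3, but in Set 3 the siLuc library is from experiment 1 and the untreated and siStag3 libraries are from experiment 5. The replicates are stated to be biological, all from 1 cell line, and the knockdown was partial.

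DNA replication proceeds in steps that these genes divide among themselves. In late mitosis and G1 the origin recognition complex, with Cdc6 and Cdt1, loads the ring of Mcm2 to Mcm7 onto origins; in S phase Cdc45 and the GINS complex turn that ring into the active helicase. Polymerase alpha with primase starts each strand, polymerases epsilon and delta extend the leading and lagging strands with the Pcna clamp, and ribonucleotide reductase and thymidylate synthase provide the nucleotides. Mouse embryonic stem cells are known for a short G1 phase and a large share of cells in S phase, and many genes of this machinery are textbook targets of E2F transcription factors. Bulk counts do not separate a smaller share of cells in S phase from less RNA per cell.

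Total counts per library ran from 29332436 to 44527534, so that even the lowest member, Gins3, had at least 444 counts in each. All 10 naive and core pluripotency markers were expressed, with a summed level of 5849.7 to 6201 CPM over the 9 libraries (CPM are counts scaled to a common library total with TMM factors), and Pou5f1 alone stood between 800.2 and 958. Mitochondrial genes took 4.41% and 5.33% of counts in Set 1 and 3.48% in Set 3 of untreated cells. They took 6.73%, 6.08% and 5.98% in siLuc and 6.60%, 6.78% and 4.10% in siStag3 cells in the same order. Markers of other cells were low. The 8 primitive endoderm markers summed to between 2.44 and 4.26 CPM, and the 7 fibroblast markers found in the table to between 3.43 and 5.58 CPM, with Col3a1, Postn and Lum at 0 in at least 1 library. The 6 trophoblast markers found in the table summed to 70.7 to 74.8 CPM in untreated, 72.5 to 75.2 in siLuc and 62.9 to 67.8 in siStag3 libraries, nearly all of it Tfap2c, which stem cells also express. Stag3 itself, the check of the knockdown, stood at 24.1, 24.3 and 28.6 CPM in untreated, 22.5, 23.3 and 26.7 in siLuc, and 13.5, 15.2 and 15.6 in siStag3 libraries. The siStag3 libraries did not overlap either control group, and against siLuc Stag3 fell by 0.71 on the log2 scale, to 61.2% of the siLuc level, with SE 0.0722 and an adjusted p of 0.00205 by edgeR. That p was 0.605 without the set term described below and 0.0582 without the siStag3 library of Set 1 experiment 1.

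To show what the start sites of these genes look like, upstream stretches of 4 members are given, all from RefSeq on GRCm38.p6, 5′ to 3′ along the gene's own strand and ending at the annotated start. Mcm6 and Mcm5 are helicase subunits with several matches to E2F letters, Pola1 is the member that differed most between the library sets, and Mcm2 is a helicase subunit with no match in its window. Capitals mark the matched letters.
Mcm6, chr1:128359706-128359955, minus strand: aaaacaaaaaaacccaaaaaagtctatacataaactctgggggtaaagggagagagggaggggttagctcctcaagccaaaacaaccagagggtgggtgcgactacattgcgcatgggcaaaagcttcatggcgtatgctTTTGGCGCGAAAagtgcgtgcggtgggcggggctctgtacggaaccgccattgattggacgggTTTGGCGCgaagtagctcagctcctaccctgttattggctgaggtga
Mcm5, chr8:75109259-75109508, plus strand: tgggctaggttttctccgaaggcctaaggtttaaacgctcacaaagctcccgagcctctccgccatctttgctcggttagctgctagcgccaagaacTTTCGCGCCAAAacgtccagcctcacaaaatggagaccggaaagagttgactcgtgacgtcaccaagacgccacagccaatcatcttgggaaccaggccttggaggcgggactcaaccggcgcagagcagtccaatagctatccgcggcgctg
Pola1, chrX:93632156-93632405, minus strand: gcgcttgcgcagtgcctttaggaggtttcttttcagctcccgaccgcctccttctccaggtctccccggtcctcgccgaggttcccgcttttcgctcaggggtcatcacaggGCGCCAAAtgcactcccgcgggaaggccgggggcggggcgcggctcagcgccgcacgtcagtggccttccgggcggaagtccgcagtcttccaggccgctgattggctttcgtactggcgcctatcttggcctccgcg
Mcm2, chr6:88898781-88899030, minus strand: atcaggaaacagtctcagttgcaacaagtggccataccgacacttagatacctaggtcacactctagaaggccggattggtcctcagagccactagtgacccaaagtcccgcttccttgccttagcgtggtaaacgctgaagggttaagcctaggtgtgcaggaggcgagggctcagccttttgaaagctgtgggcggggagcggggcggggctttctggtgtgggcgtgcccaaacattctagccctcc
The letters searched were TTTGGCGC, TTTCCCGC, TTTCGCGC and TTTGCCGC on both strands, and matches may overlap each other, as they do in Mcm5 and Mcm6. Windows of 300 bases, 250 before and 50 after the start, were found for 36 of the 44 members, 44 windows in all. Of these 44 windows 14 (31.8%) held such letters, against 744 of 32851 windows (2.26%) of all genes. The 14 genes were Orc1, Orc3, Cdc6, Cdt1, Mcm3, Mcm5, Mcm6, Mcm7, Gins3, Pola1, Pold1, Pole2, Rfc3 and Lig1. CCAAT, on either strand, was present in 25 of the 44 windows (56.8%) and in 37.4% of all windows. A match describes the letters of the window and is not a measured binding site.

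Together the 44 genes took 0.841% ± 0.0137 (SD, n = 3) of all counts in untreated, 0.817% ± 0.0521 in siLuc and 0.830% ± 0.0174 in siStag3 cells. Levels per transcript length, as TMM-scaled RPKM averaged over the 9 libraries, ranged from 6.61 for Gins3, a subunit of the GINS complex, to 265.8 for Pcna, the sliding clamp. Behind Pcna came Mcm3 (208), Mcm7 (189), Rrm2, the small subunit of ribonucleotide reductase (172), Mcm2 (139.9), Mcm5 (138), the Okazaki fragment ligase Lig1 (117), Mcm6 (116) and Mcm4 (114). The 6 Mcm2 to Mcm7 genes, whose products occupy one ring, thus lay within a range of 114 to 208 RPKM. At the low end, next to Gins3, stood Orc4 (10.9) and Gins2 (11.1), while the other GINS subunits Gins1 and Gins4 reached 50.7 and 53.8 RPKM. These levels depend on the length used, that of the longest annotated transcript, whether or not it was the one expressed. It was 3900 bases for Gins2, 2519 for Gins3, 1349 for Gins4 and 1087 for Gins1. In mean CPM, without length, these 4 genes stood at 43.3, 16.7, 72.6 and 55.1 in the same order.

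The order held only in part from library to library. Of the 43 pairs of neighbours in the order of mean RPKM, 13 kept their order in 9 of 9 libraries. Among these were Pcna above Mcm3, Mcm3 above Mcm7, and Gins2 at the other end below Rfc2, a clamp loader subunit. Neighbours such as Lig1 and Mcm6, or Mcm6 and Mcm4, changed places between libraries. Sequence shared with other genes could move a level: 26.8% of the 31-base words of Mcm7 and 23.3% of those of Pcna also occur in other annotated genes, in Gm5487 and the pseudogene Pcna-ps2 above all.

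**Figure D1:**
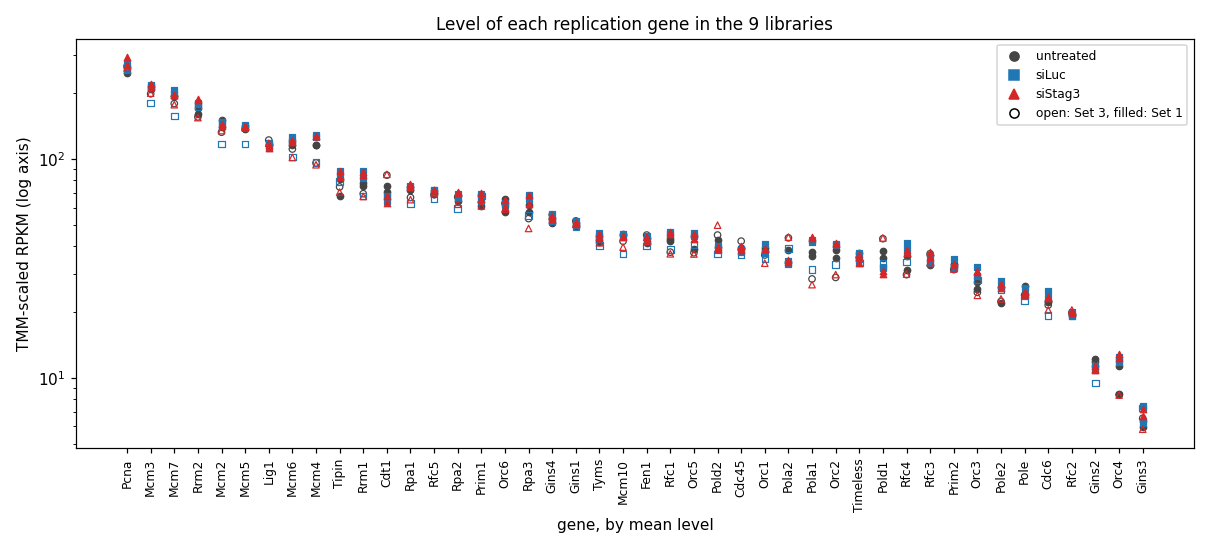
TMM-scaled RPKM (log axis) of each of the 44 genes in each library, ordered by the mean over the 9 libraries; colour and shape give the treatment, and open symbols are Set 3 libraries. Pcna is highest at 265.8 and Gins3 lowest at 6.61, and the libraries of 1 gene span at most 1.66-fold. Of 43 pairs of neighbouring genes 13 kept their order in 9 of 9 libraries.

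Variation over the 9 libraries was small for most members. The median coefficient of variation was 7.23%, against 9.21% for the 7355 tested genes within the members' range of mean CPM. It was lowest for Rfc2 (2.12%), which stayed between 95.9 and 102 CPM in every library, and highest for Pola1 (18.3%), the catalytic subunit of polymerase alpha. Pola1 stood at 194, 202 and 151 CPM in untreated, 228, 223 and 168 in siLuc, and 237, 234 and 143 in siStag3 libraries, where the last value of each group is the Set 3 library. The 3 Set 3 values were the lowest of the 9, whatever the treatment.

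**Figure D2:**
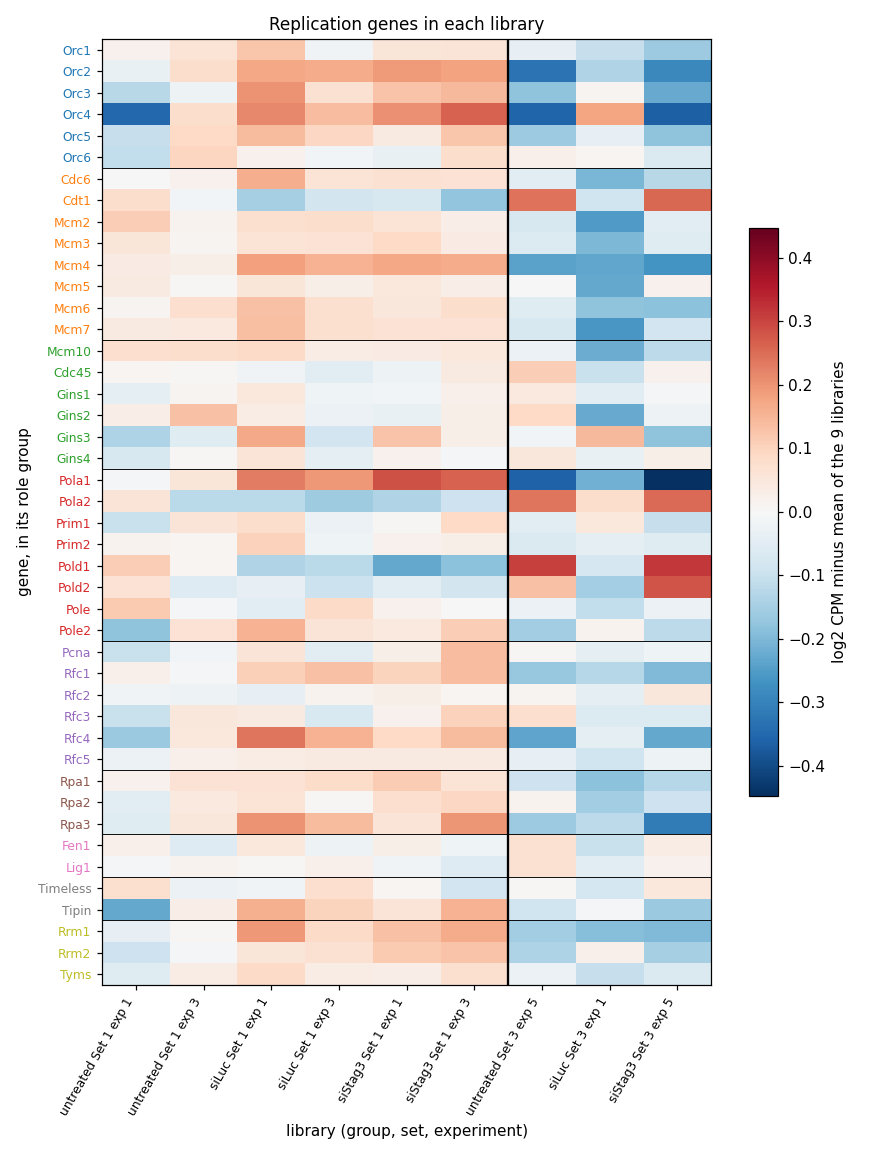
Each gene's log2 CPM minus its mean over the 9 libraries (colour), with genes in rows by role and libraries in columns; the thick line separates the Set 1 libraries on the left from the 3 Set 3 libraries. Pola1, Orc2 and Mcm4 are lower in all Set 3 libraries, and Pola2 is higher in them.

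The comparison of siLuc with untreated cells asks what transfection of a control siRNA does to these genes. In Set 3 it also crosses experiments 1 and 5, which the set term does not remove. None of the 44 passed an adjusted p of 0.05 in edgeR's quasi-likelihood test with the set as a covariate, where 4.2% of all genes tested (598) were called. The smallest adjusted p of a member was 0.0666, and 11 of 44 had an unadjusted p under 0.05, against 27.8% of all genes. The members' log2 fold changes ran from -0.25 to 0.38 with a median of -0.0025, close to the -0.0024 of all genes, and 21 were positive and 23 negative. In 3 members every siLuc library was above every untreated one (Orc3, Orc4 and Rrm2; 9.59% of all genes did so), and in 3 every siLuc library was below (Cdt1, Cdc45 and Pold1; 10.3% of all genes). The mitochondrial share given above was also higher in every siLuc library than in every untreated one, and its part in these values was not tested. The summed pluripotency markers were lower in every siLuc library (5849.7 to 5995.9 CPM) than in every untreated one (6085.1 to 6136.2). Their part was not tested either.

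The members with the smallest p were Rfc4, Pold1 and Orc3. Rfc4, a subunit of the clamp loader, measured 39.8, 46.2 and 37.9 CPM in untreated and 52.7, 49.8 and 43.4 in siLuc libraries, so the groups overlapped in 1 value. The estimate for siLuc was 0.23 higher on the log2 scale (SE 0.0699, adjusted p = 0.0666 by edgeR). Pold1, the catalytic subunit of polymerase delta, measured 131, 122 and 149.5 CPM in untreated and 110.1, 111 and 115 in siLuc libraries. The groups did not overlap, and the estimate was -0.25 on the log2 scale (SE 0.0801, adjusted p = 0.0798 by edgeR). Orc3, an origin recognition subunit, measured 58.8, 63.1 and 56.6 CPM in untreated and 73.6, 67.2 and 64.5 in siLuc libraries, again without overlap, and the estimate was 0.20 on that scale (SE 0.0686, adjusted p = 0.0923 by edgeR).

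By role, 5 of 6 origin recognition genes had a positive fold change, with a median of 0.14 and Orc4 at 0.38 (SE 0.131) as the largest. Orc4 was the least precise member, at 34.2, 46.1 and 34.0 CPM in untreated and 50.6, 48.0 and 49.3 in siLuc libraries. Licensing genes had a median of -0.024 (2 of 8 positive), and their lowest was Cdt1, the loading factor that is degraded in S phase, at -0.21. Helicase activation genes had a median of -0.043, polymerases and primase -0.012, the clamp and its loader 0.015, and single-strand binding proteins -0.010. All 3 nucleotide supply genes were positive, with Rrm2 at 0.13, Rrm1 at 0.091 and Tyms at 0.019. None of these roles held a gene that passed the test. With the GC offset described below, the medians were 0.018 for origin recognition (3 of 6 positive), 0.0065 for licensing and -0.080 for helicase activation. They were -0.022 for polymerases and primase, -0.0011 for the clamp and its loader and -0.031 for single-strand binding. Nucleotide supply then had a median of -0.019, with 1 of 3 positive.

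The calls in this comparison changed with the tool and the libraries in the fit. DESeq2 called 3 members (Orc4 and Rfc4 higher, Pold1 lower; 11.6% of the genes it gave an adjusted p). With only the 6 libraries compared, 6 members passed (Orc3, Orc4, Pola1 and Rfc4 higher, Cdt1 and Pold1 lower; 12.8% of all genes called), and without the siStag3 library of Set 3, which takes part through the shared spread and set term, 7 did (these 6 and Orc2; 17% of all genes called).

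The comparison of siStag3 with siLuc sets the Stag3 siRNA beside a control siRNA, both transfected. In Set 3 it also crosses experiments 1 and 5, which the set term does not remove. None of the 44 members passed the test here either, where 4 genes (0.0281%) did, and no member reached an unadjusted p under 0.05, against 7.88% of all genes. The members' log2 fold changes lay between -0.14 and 0.14, with a median of 0.0052 (all genes -0.0048). No member had siStag3 libraries all above or all below the siLuc libraries, where 3.18% and 3.41% of all genes did. The summed trophoblast markers given above did not overlap between these groups. Nor did the summed pluripotency markers, at 5849.7 to 5995.9 CPM in siLuc and 6094.4 to 6201.3 in siStag3 libraries. The 4 markers of 2-cell-like cells found in the table had few counts. They summed to 0.38 to 0.72 CPM in siLuc and 0.85 to 0.96 in siStag3 libraries. The part of these 3 marker lists in the members' values was not tested.

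The members with the smallest p were Pold2, Rfc4 and Cdt1. Pold2, the accessory subunit of polymerase delta, measured 65.9, 63.3 and 60.8 CPM in siLuc and 65.2, 63.8 and 82.2 in siStag3 libraries, so that only the Set 3 library was above the siLuc range. The estimate was 0.14 on the log2 scale (SE 0.0794, adjusted p = 0.687 by edgeR). Rfc4 was at -0.11 (SE 0.0701, adjusted p = 0.710 by edgeR), with 47.5, 49.3 and 38.2 CPM in siStag3 libraries. Cdt1 measured 141, 148 and 147 CPM in siLuc and 149, 138 and 187 in siStag3 libraries, and the estimate was 0.11 (SE 0.0714, adjusted p = 0.720 by edgeR). As for Pold2, the highest siStag3 value came from Set 3.

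The abundant members were close to each other in these groups. Pcna measured 419, 389 and 392 CPM in siLuc and 410.1, 444 and 397 in siStag3 libraries (log2 fold change 0.060, 95% interval -0.07 to 0.19). Mcm3 measured 658, 659.7 and 548 CPM against 671, 647 and 608 (0.050, -0.07 to 0.17). Rrm2 measured 392, 396 and 383 CPM against 409, 412 and 339.9 (-0.015, -0.14 to 0.11). In each of these genes the groups overlapped and the interval included 0.

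These intervals say how large a change the libraries would still allow. For siStag3 against siLuc the 95% interval of every member (44 of 44) lay within a 1.5-fold change in either direction and that of 43 lay within 1.25-fold, as did 98.8% and 86.9% of the genes within the members' CPM range. Within 1.1-fold lay only 8 of 44, so a change of about 10% was not excluded for most members. The intervals reached a median of 0.128 on the log2 scale to either side, and the farthest bound belonged to Orc4 at -0.43. With the GC offset described below, 29 of 44 intervals lay within 1.1-fold.

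**Figure D3:**
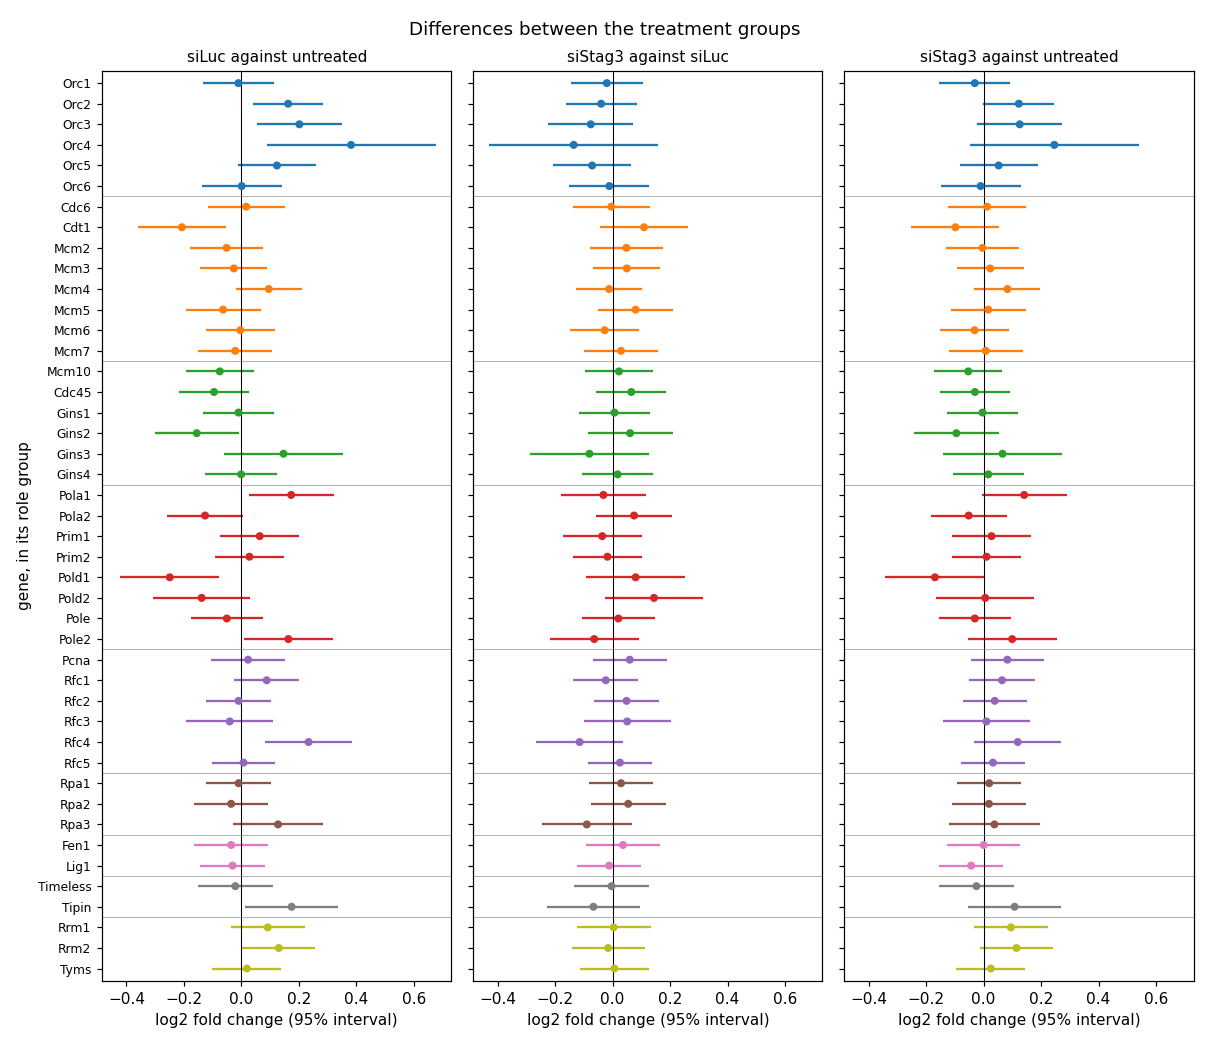
Log2 fold change (point) and 95% interval (bar) of each gene in the 3 treatment comparisons, by role. No member passed the adjusted threshold in any panel; the middle panel, siStag3 against siLuc, spans -0.14 to 0.14, and Orc4 has the widest bars.

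Against untreated cells, the siStag3 group combines transfection and the Stag3 siRNA, and it shares its controls with the siLuc comparison. None of the 44 members passed (2.53% of all genes did), none had an unadjusted p under 0.05 (17% of all genes), and the smallest adjusted p was 0.295. Fold changes ran from -0.17 to 0.25 on the log2 scale with a median of 0.018 (all genes -0.0056). Orc2, an origin recognition subunit, measured 126, 136 and 103 CPM in untreated and 147, 146 and 106 in siStag3 libraries (estimate 0.12 on the log2 scale, SE 0.0573, adjusted p = 0.295 by edgeR). The next were Pold1 at -0.17 (SE 0.0800, adjusted p = 0.301 by edgeR) and Pola1 at 0.14 (SE 0.0686, adjusted p = 0.313 by edgeR).

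In both genes the siStag3 libraries stood differently against the untreated ones in the 2 sets. Pold1 measured 103 and 107 CPM in Set 1 and 151 in Set 3 of siStag3, against 131, 122 and 149.5 in untreated libraries. With the Set 1 libraries alone, Pola1 (0.25, adjusted p = 0.0265 by edgeR) and Pold1 (-0.26, adjusted p = 0.0285 by edgeR) passed (6.62% of all genes), and the same 2 passed without the siStag3 library of Set 3 (11% of all genes). Gins2 was the only member whose siStag3 libraries (42.2, 44.02 and 42.5 CPM) were all below the untreated ones (44.1, 47.3 and 45.9), by a narrow margin, which 5.38% of all genes showed, and no member lay wholly above (4.63% of all genes). Of the 44 intervals 42 lay within 1.25-fold and 44 within 1.5-fold.

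The direction of these small differences followed the base composition of the transcripts. GC content of the longest protein-coding transcript had a median of 48.1% over the members and ran from 36.8% (Orc4) to 60.7% (Pold1). Across the 44 members, which share the same libraries, the fold change of siLuc against untreated and GC content had a Pearson r of -0.88 (Spearman -0.87). Over all 14226 genes with a GC value r was -0.38 (Spearman -0.50). Fold changes of all genes were also more spread (SD 0.281, against 0.121 for the members). No r was computed for genes within the members' CPM range, so the values of r are not a like comparison. The 11 members lowest in GC all had a positive fold change (median 0.16), and none of the 11 highest in GC did (median -0.052). For siStag3 against siLuc r was 0.82 over the members (0.25 over all genes), and for siStag3 against untreated it was -0.79 (-0.19 over all genes). The comparisons share libraries, so these coefficients are not independent of each other. Genes are not independent replicates, so these coefficients describe the set of genes only.

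An offset that removes each library's median deviation in 20 bins of GC content flattened the relation, which it is built to do. The r of siLuc against untreated became -0.11, the SD of the members' fold changes went from 0.121 to 0.0575, and 6 of the 11 lowest and 7 of the 11 highest in GC were then positive. Orc4 moved from 0.38 to 0.15, Rfc4 from 0.23 to 0.095, Pold1 from -0.25 to -0.055 and Cdt1 from -0.21 to -0.028. With the offset no member passed for siLuc against untreated (7.01% of all genes did), siStag3 against siLuc (0.428%) or siStag3 against untreated (6.78%), and all 44 intervals lay within 1.25-fold in each comparison.

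**Figure D4:**
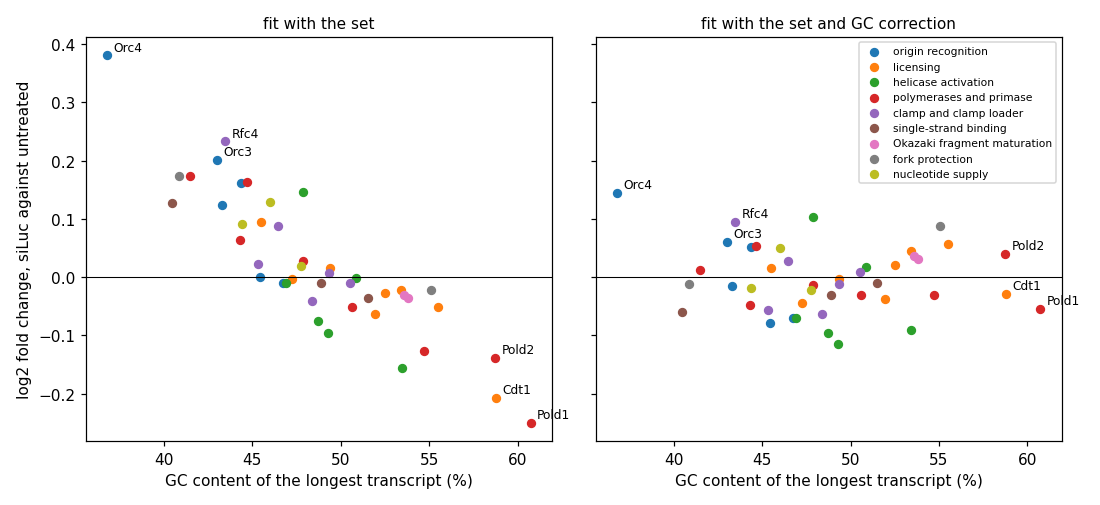
Log2 fold change of siLuc against untreated (vertical axis) by GC content of the longest transcript in percent (horizontal axis) for the 44 genes, without (left) and with (right) the GC offset. The slope from Orc4 at 0.38 to Pold1 at -0.25 on the left (r = -0.88) is nearly flat on the right (r = -0.11). The offset is built to flatten it.

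The 2 sets cut across the treatments, since each group has libraries in both. Set 3 against Set 1, estimated across the 3 groups, called 20 of the 44 members, 17 lower and 3 higher in Set 3. This share lay near the background, since 42.7% of all genes were called, but all genes divided evenly (21.2% lower, 21.4% higher). Higher calls made up 50.2% of the calls over all genes, or 61.7% with counts scaled by their total alone, where 15 members passed, 12 lower and 3 higher (43.6% of all genes passed). The mitochondrial share was lowest in Set 3 in each of the 3 groups, and its part in these differences was not tested. The members' median was -0.11 and that of all genes 0.0025. In 15 members all 3 Set 3 libraries were below all 6 Set 1 libraries (13% of all genes did so) and in 1, Pola2, all were above (13.3%).

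The largest falls in Set 3 were spread over the roles. Pola1 fell by 0.51 on the log2 scale (SE 0.0607, adjusted p = 4.15e-05 by edgeR). Orc2 fell by 0.38 (SE 0.0504, adjusted p = 9.26e-05 by edgeR), and Mcm4 by 0.37 (SE 0.0469, adjusted p = 6.47e-05 by edgeR). Rpa3, the small subunit of the single-strand binding complex, fell by 0.29, Rrm1, the large subunit of ribonucleotide reductase, by 0.27, and Rfc4 by 0.25. The smallest that passed were Mcm3 at -0.16 and Orc1 at -0.15. Mcm3 did not pass without the siLuc library of Set 3 (-0.10) or with counts scaled by their total alone (-0.10). Orc1 did not pass with that scaling (-0.099), nor in 6 of the 9 fits that left out 1 library (-0.12 to -0.15); it passed without either experiment 1 of Set 1 or the Set 3 library of the untreated group, or without siLuc experiment 3 of Set 1. The 3 that rose were Pola2, the second subunit of polymerase alpha, and Pold1, each by 0.28, and Cdt1 by 0.21. Without the siStag3 library of Set 3, Pold1 (0.15) and Cdt1 (0.12) did not pass, nor did Cdt1 without the untreated library of Set 3 (0.21). Pola2 thus moved opposite to Pola1, its partner in the same enzyme: it measured 106, 94.6 and 107 CPM in the 3 Set 3 libraries and between 80.2 and 93.3 in Set 1.

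**Figure D5:**
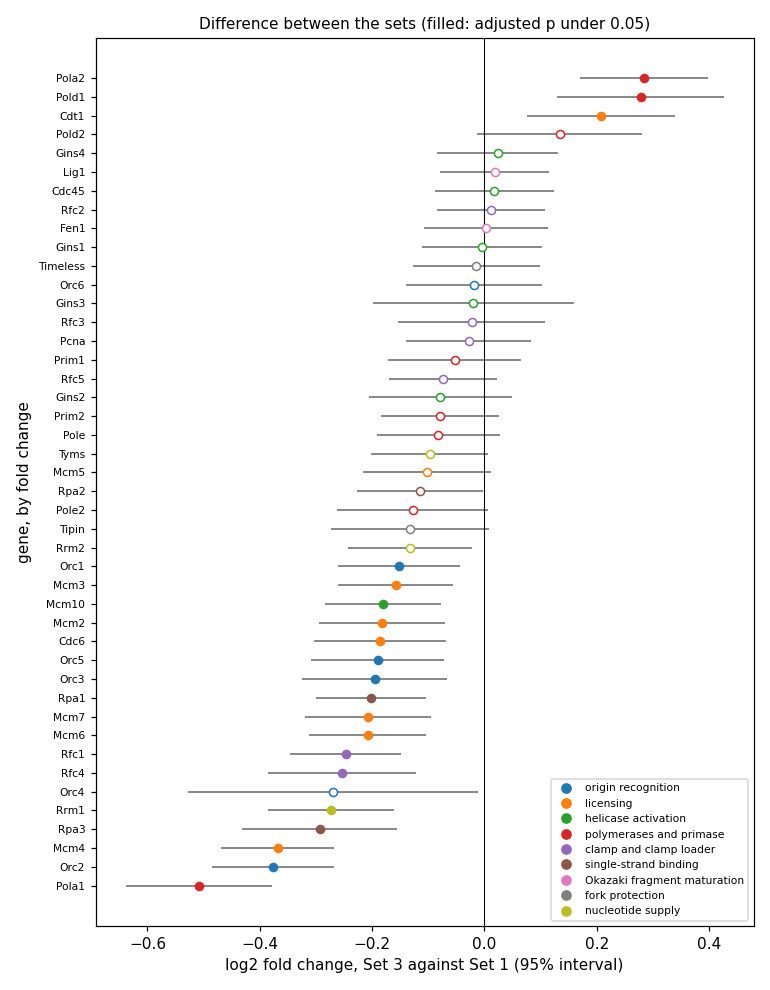
Log2 fold change of Set 3 against Set 1 (point) with its 95% interval (bar) for each gene, ordered by value; colour gives the role and filled points passed an adjusted p of 0.05. Of the 20 filled points 17 lie below 0 and 3 (Pola2, Pold1 and Cdt1) above it.

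With the GC offset 20 members again passed, 18 lower and 2 higher, where 41.5% of all genes did (20.8% lower and 20.7% higher), and the members' median was -0.056. The 2 sets of calls were not the same. Cdt1 (-0.029), Pold1 (0.011), Rpa3 (-0.030), Rfc4 (-0.085), Orc1 (-0.053), Orc3 (-0.028) and Orc5 (-0.022) no longer passed. Pola1 (-0.31), Orc2 (-0.23) and Pola2 (0.16) still passed. Mcm5, Gins2, Pold2, Pole, Rpa2, Timeless and Tipin passed only with the offset. Of these, Pold2 went from 0.13 to -0.10 and Tipin from -0.13 to 0.13, so the 2 higher calls were Pola2 and Tipin. Rrm1 passed with the offset but not when the siLuc library of Set 3 was also left out (-0.059). r with GC content over the members was 0.69 before and -0.20 after the offset.

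Licensing held the most calls of any role, 6 of its 8 genes lower without the offset and 7 with it. Of all genes 21.2% were called lower without the offset and 20.8% with it. Without the offset 5 of the 6 Mcm2 to Mcm7 genes passed as lower in Set 3 (3 with scaling by total alone: Mcm4, Mcm6 and Mcm7) and Mcm5 (-0.10, adjusted p = 0.135 by edgeR) did not; with it all 6 did, at -0.33 for Mcm2, -0.22 for Mcm3, -0.26 for Mcm4, -0.14 for Mcm5, -0.16 for Mcm6 and -0.30 for Mcm7. Mcm2 measured 507 and 476 CPM in Set 1 and 448 in Set 3 of untreated, 494, 497 and 395 in siLuc, and 491, 480.3 and 456 in siStag3 cells. Mcm7 measured 574, 577 and 532 CPM in untreated, 613, 587 and 467 in siLuc, and 584, 584 and 526 in siStag3 cells in the same order. Each group had its lowest value in Set 3, and the siLuc library of Set 3 was the lowest of all 9 for both genes. Without that library 2 of the 6 genes passed (Mcm4 and Mcm6; 44% of all genes did), or 4 with the GC offset (Mcm2, Mcm3, Mcm4 and Mcm7; 34.7% of all genes). All 6 fold changes were negative in both of these fits, from -0.015 to -0.35 in the first and from -0.075 to -0.30 in the second.

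Within each set the treatment differences were estimated separately; in Set 3 those with siLuc also cross experiments 1 and 5, so treatment and experiment cannot be told apart there. For siLuc against untreated the median was 0.035 in Set 1 (range -0.19 to 0.30) and -0.081 in Set 3 (range -0.38 to 0.54), where each group is 1 library and no spread can be given. For siStag3 against siLuc the medians were -0.0017 in Set 1 (range -0.081 to 0.079) and 0.039 in Set 3 (range -0.54 to 0.44). For siStag3 against untreated they were 0.040 and -0.027. The same sign in both sets was found in 23 of 44 members for siLuc against untreated (71.9% of all genes), in 19 for siStag3 against siLuc (47.7%), and in 11 for siStag3 against untreated (55.1%). The range in Set 1 for siStag3 against siLuc was the narrowest of these.

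Whether the differences depended on the set was tested as an interaction. No member passed for siLuc against untreated (0.014% of all genes did) or for siStag3 against siLuc (1.12%). For the second, 9 members had an unadjusted p under 0.05, a share near the 21.6% of all genes, and the smallest adjusted p belonged to both polymerase delta subunits. Pold1 differed by -0.077 in Set 1 and 0.39 in Set 3 (difference 0.47, SE 0.0998, adjusted p = 0.0505 by edgeR). Pold2 differed by -0.0012 and 0.44 (difference 0.44, SE 0.108, adjusted p = 0.0711 by edgeR), and Cdt1 by -0.0090 and 0.35 (difference 0.36, SE 0.106, adjusted p = 0.0973 by edgeR). With 60.7%, 58.7% and 58.8%, these 3 genes had the highest GC content of the 44. When either untreated library of Set 1 was left out, 8 members passed for the second interaction, where 17.5% of all genes did. They were Orc4, Cdt1, Mcm2, Mcm5, Pola1, Pold1, Pold2 and Rrm2. Untreated libraries enter that interaction only through the shared spread, filter and scaling. Orc4 passed for the first interaction without the untreated library of Set 1 experiment 1 (4.96% of all genes).

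Genes around this machinery were counted in further lists, to be read beside the 4.2% of all genes called for siLuc against untreated. Of 40 other replication genes, 2 fell in siLuc against untreated and none rose: Chtf18, of an alternative clamp loader, at -0.37 (SE 0.0701, adjusted p = 0.0128 by edgeR), and Tonsl, which binds new histones behind the fork, at -0.36 (SE 0.0759, adjusted p = 0.0226 by edgeR). Of 20 other nucleotide genes, thymidine kinase Tk1 alone fell, by 0.29 (SE 0.0599, adjusted p = 0.0209 by edgeR). Of 23 E2F and S-phase regulators, Rb1, which restrains E2F, rose by 0.57 (adjusted p = 0.0237 by edgeR), while the CDK inhibitor Cdkn1a fell by 0.35 (adjusted p = 0.0197 by edgeR) and E2f1 by 0.26 (adjusted p = 0.0341 by edgeR). Of 20 mitotic genes Nusap1 rose by 0.25 (adjusted p = 0.0427 by edgeR). With the GC offset E2f1 (adjusted p = 0.400 by edgeR) and Nusap1 (adjusted p = 0.183 by edgeR) no longer passed and the other 5 did, while 2 more genes passed. These were Pclaf, a partner of Pcna, which was higher (0.20, adjusted p = 0.0438 by edgeR), and the S-phase kinase Cdk2, which was lower (-0.15, adjusted p = 0.0319 by edgeR). Without the set term none of the 7 passed (edgeR adjusted p from 0.579 to 0.606). None passed without the untreated library of Set 3 (0.0524 to 0.134) or without the siLuc library of Set 3 (0.0737 to 0.205). Without experiment 1 of Set 1 in untreated cells all but Cdkn1a did not pass (0.0594 to 0.151), and without that of siLuc all but Rb1 did not (0.0562 to 0.114). Cdkn1a, E2f1 and Nusap1 also did not pass without untreated experiment 3 of Set 1 (0.0507 to 0.0580), E2f1 and Nusap1 without siStag3 experiment 1 of Set 1 (0.0638 and 0.0747), and E2f1 without siLuc experiment 3 of Set 1 (0.0565).

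Without the GC offset no gene of these lists passed for siStag3 against siLuc or for siStag3 against untreated, and with it none passed for siStag3 against siLuc. For siStag3 against untreated 9 genes passed with the offset, where 6.78% of all genes did. Of other replication genes, Pclaf was higher (0.34) and Tonsl (-0.19) and Chtf18 (-0.15) were lower. Of nucleotide genes, the folate enzyme Mthfd2 was higher (0.28) and Cad, which starts pyrimidine synthesis, was lower (-0.18). The regulators E2f2 (0.36), E2f8 (0.22) and Ccna2 (0.19) and the mitotic checkpoint gene Bub1b (0.14) were higher. Their adjusted p by edgeR ran from 0.000856 to 0.0495 with the offset and from 0.0685 to 0.295 without it. The medians of the lists for siStag3 against siLuc, without the offset, were 0.0097 for other replication genes, 0.0016 for nucleotide genes, -0.00072 for E2F and S-phase regulators and -0.017 for mitotic genes, beside 0.0052 for the 44 members and -0.0048 for all genes. Between the sets, 18 of 40 other replication genes passed (5 higher and 13 lower), 9 of 20 nucleotide genes, 10 of 23 regulators and 12 of 20 mitotic genes, beside 42.7% of all genes. Mitotic genes, like the members, were lower in Set 3 more often than higher (9 against 3), with a median of -0.12. With the GC offset 7 mitotic genes were lower and 3 higher (median -0.055), where 41.5% of all genes passed. Of other replication genes 10 were then lower and 7 higher (median -0.040).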

How the data were processed

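Per the labels, mRNA libraries were prepared from total RNA (KAPA HyperPrep). The authors deposited 1 table of whole-number counts per gene; Salmon, FastQC, DESeq2 and the build GRCm39 are named in the submitters' processing notes, while annotation, strand setting and rounding are not given in the sources used here. Every column was mapped to a group by its name (columns not mapped: 0), and names give a set and an experiment, not the labels' replicate number. If reads were counted without strand, 11 members whose exons overlap a gene on the opposite strand (Cdc45, Fen1, Gins2, Lig1, Mcm7, Orc2, Orc4, Orc6, Rfc2, Rfc4 and Rfc5) may include its reads. Where libraries came from separate cultures is not stated beyond the word biological, so p-values measure the spread between these libraries.

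From the counts, edgeR 4.0.16 in R 4.3.3 (limma 3.58.1) fitted group and set over 9 libraries, with filterByExpr, TMM factors and a robust quasi-likelihood F test, 5 residual degrees of freedom, and Benjamini-Hochberg adjustment over 14246 genes at 0.05. The biological coefficient of variation was 7.62% with the set term and 14.6% without. An interaction of group and set was fitted separately. GC content and lengths came from the longest protein-coding transcript in GENCODE M21 (GRCm38); RPKM is TMM-scaled CPM per kilobase of it. The GC offset subtracts each library's median log2 deviation (prior count 2) in 20 bins. Named genes are the 3 smallest p in each treatment comparison and, between sets, those that rose, the 6 largest falls and the 2 smallest; others were chosen after their values were seen. Alternatives included DESeq2 1.42.0, other scaling and filters, and leaving out each library. The fits were also run on simulated counts with known changes in siStag3. Those changes were larger than any member's for siStag3 against siLuc, so that run does not bear on changes of the members' size. No 2 libraries of a group were identical or agreed within sampling noise (chi-square per degree of freedom at least 4.64). Members, lists, the set term and the rules were chosen with earlier results of these data known.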

Additional observations from a re-analysis of the deposited data

How the results depend on the processing

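No member passed for siStag3 against siLuc under any alternative, including each of the 9 libraries left out. For siLuc against untreated the count of 0 became 3 with DESeq2 (Orc4, Pold1 and Rfc4), 6 with only the 6 libraries compared, and 0 to 7 with 1 library left out, 7 without the siStag3 library of Set 3. The fits with 3, 6 and 7 called 11.6%, 12.8% and 17% of all genes. For siStag3 against untreated the count became 2 with Set 1 libraries only (6.62% of all genes). It was 0 to 2 with 1 library left out, 2 without the siStag3 library of Set 3 (11% of all genes). The cause of these changes was not tested. Between sets the count of 20 ran from 15 to 25 with 1 library left out. The fit with 15 called 4169 of 14428 genes over all, and that with 25 called 6153 of 14381. The count was 13 (34.7% of all genes called) with the GC offset and without the siLuc library of Set 3. That alternative was chosen after seeing the data, as was the GC offset without the set term. The interaction counts of 0 became 0 to 1 for siLuc (1 without the untreated Set 1 experiment 1 library, with 4.96% of all genes called) and 0 to 8 for siStag3. The fits with 8 called 17.5% of all genes.

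The median fold change for siLuc against untreated was 0.039 with Set 1 only and -0.053 scaled by total count, and with 1 library left out -0.017 to 0.032; for siStag3 against untreated it was -0.026 by total count and 0.0058 to 0.060 with 1 library left out, and for siStag3 against siLuc -0.019 to 0.037. With Set 1 only, Pold2 (-0.0022) and Cdt1 (-0.0099) changed sign for siStag3 against siLuc. Between sets Cdt1 changed sign with the GC offset (-0.029, or -0.0064 also without the siLuc library of Set 3), and Rpa3 in the second of these fits (0.065). Without the set term the adjusted p of Stag3 was 0.605 against siLuc and 0.0604 against untreated.

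The columns carry no replicate number of the labels, but a set and an experiment. A replicate block of both, as terms, left the count of members passing at 0 in each treatment comparison, with medians of 0.028 for siLuc against untreated, -0.019 for siStag3 against siLuc and 0.018 for siStag3 against untreated. Over all genes the calls went from 598 to 86, from 4 to 2 and from 361 to 352. None of the 7 genes of other lists passed for siLuc against untreated with the block (adjusted p from 0.117 to 0.280 by edgeR). Within Set 1, deviations of libraries of the same experiment had an r over genes of -0.025 to -0.044. There each group has 2 libraries, whose deviations mirror each other. In Set 3, deviations from the group means had an r of 0.66 for the 2 experiment 5 libraries, and 0.56 and 0.50 for pairs crossing experiments. These last values include the difference between the sets. With counts scaled by their total alone, higher calls over all genes went from 39.3% to 21.2% of calls for siLuc against untreated and from 42.4% to 28.1% for siStag3 against untreated.

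With 3 libraries a group, changes of about 1.1-fold were not resolved for most members, and Set 3 has 1 library a group, so no spread within it can be given.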
